A study of Saccharomyces cerevisiae with 2 samples.

Results

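The 76 snoRNA genes of budding yeast (Saccharomyces cerevisiae) are described here by the peaks of RNA:DNA hybrid signal that lay over them. They are all nuclear genes with the biotype snoRNA in RefSeq's table for assembly R64, whose sequence is that of sacCer3, out of 6431 nuclear genes listed there. The biotype rule itself uses no measured value, but members were chosen with earlier results of these data known. The signal is DRIP-seq, in which genomic DNA cut with a mix of restriction enzymes is immunoprecipitated with the hybrid-binding monoclonal antibody S9.6 and sequenced. The series holds 1 S9.6 immunoprecipitate and 1 input from the same strain, WRBb-9D, grown asynchronously to mid-log phase in YPAD medium at 30 °C. Per the labels, both were whole-genome amplified before Ion Torrent libraries were made, and the strain is called wild type. Both samples are MATa, with BAR1 deleted (bar1-delta), RRM3 tagged with FLAG (RRM3::FLAG::KAN), a GPD-Tk(7x) construct at URA3 (ura3::URA3/GPD-Tk(7x)) and the marker alleles trp1-1, ade2-1, his3-11,15 and can1-100, beside a marker allele of leu2. The values below come from the deposited peak list of the immunoprecipitate, and no list of the input was analysed.

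snoRNAs are short nucleolar RNAs that guide the chemical modification of ribosomal RNA. Box C/D snoRNAs direct methylation of the ribose, and box H/ACA snoRNAs direct the change of uridine to pseudouridine, while a few of either class (U3, U14, snR30, snR10) are needed for, or assist, the cutting of the rRNA precursor. In yeast most are transcribed by RNA polymerase II from promoters of their own, singly or as a cluster in 1 transcript that nucleases such as Rnt1, Rat1 and Xrn1 trim, and a few are released from the introns of protein-coding genes. SNR52 is known as an exception that RNA polymerase III transcribes. The nascent RNAs of snoRNA genes are ended by the Nrd1, Nab3 and Sen1 complex, whose Sen1 helicase unwinds RNA:DNA hybrids.

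The list held 1687 nuclear peaks with whole-number scores from 13 to 679. The score is the authors' own, on an unstated scale, and serves only to rank peaks within the list. Every nuclear start lay on a grid of 25 bp. No strand was read for the peaks, so sides before and after a gene follow the strand of the gene. The DNA was cut with restriction enzymes whose sites were not examined. Short distances below are therefore positions in the peak list and do not place a hybrid that finely. Read counts and depth are unknown. With 1 immunoprecipitate there is no replicate check and no test between groups of genes. Exact (Clopper-Pearson) 95% intervals cover counting error only, and they overstate the precision where genes of 1 cluster share a peak. Coordinates are 1-based sacCer3 positions.

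Of the 76 snoRNA genes, 19 were covered by peaks, meaning that at least 50% of the gene's length lay inside peaks (25%, interval 15.8 to 36.3). Among the 6355 other nuclear genes, 5.59% were covered. Wholly inside a peak were 14 snoRNA genes, 51 were untouched, and 11 lay partly inside peaks. Touched at all were 25 snoRNA genes (32.9%, interval 22.5 to 44.6), against 21.7% of the other nuclear genes. Of the 13689 bp of snoRNA genes, 33.7% lay inside peaks, against 7.06% of the bases of other nuclear genes and 8.83% of the bases between nuclear genes.

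Short genes are more easily covered whole, so genes of like length are the nearer comparison. The snoRNA genes had a median length of 125 bp, with a range from 78 to 1004 bp. Of the 2419 protein-coding genes within that range, leaving out long repeated ORFs, 5.66% were covered and 14.3% touched, and over all lengths 3.96% of protein-coding genes without such ORFs were covered and 20.7% touched. Those in the length range had a longer median than the snoRNA genes, at 615 bp. The tRNA genes are shorter still, with a median of 73 bp, and 29.8% of the 275 nuclear ones were covered and 33.1% touched, shares within the intervals of the snoRNA genes. None of the 18 peaks that touched a snoRNA gene touched a tRNA gene or a long repeated ORF, the kind of ORF that Ty retrotransposons carry.

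**Figure D1:**
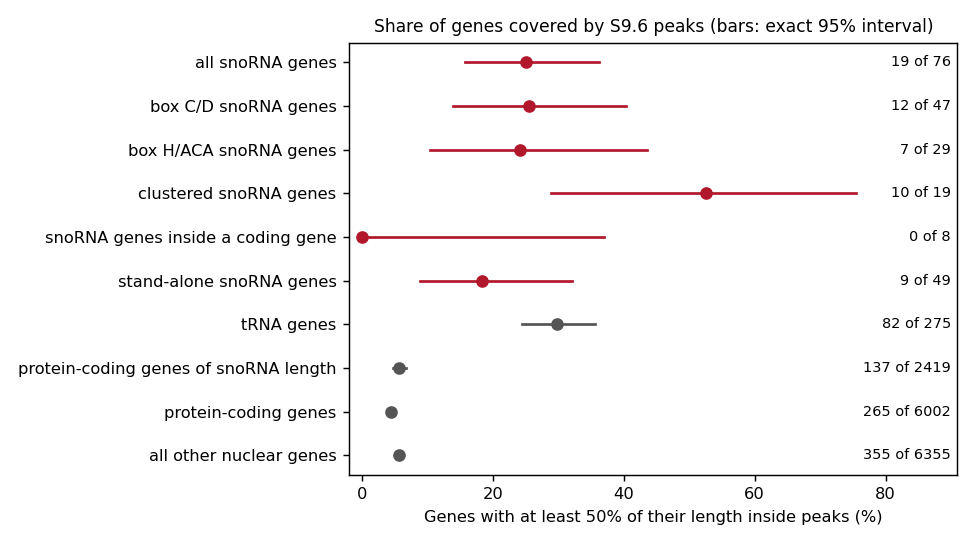
Share of genes with at least 50% of their length inside S9.6 peaks (horizontal axis, percent), for snoRNA genes and their subgroups (red, upper 6 rows) and for other nuclear genes (grey, lower 4 rows). Points are shares, bars are exact 95% intervals and the counts stand at the right: clustered snoRNA genes stood at 52.6%, those inside coding genes at 0% and all other nuclear genes at 5.59%.

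Box C/D and box H/ACA genes had nearly the same share covered. The table does not describe the box, so each gene's class was taken from textbook knowledge, which gives 47 box C/D and 29 box H/ACA genes. Covered were 12 of 47 box C/D genes (25.5%, interval 13.9 to 40.3) and 7 of 29 box H/ACA genes (24.1%, interval 10.3 to 43.5), so each share lay well within the other's interval. In bases the shares were 29.6% for box C/D and 36.7% for box H/ACA genes. The covered genes of the classes differed in position. Of the 12 covered box C/D genes, 10 lay in clusters and the other 2 were the U3 genes. All 7 covered box H/ACA genes stood alone. The classes as a whole also differ in position. Of the 47 box C/D genes 17 were clustered and 24 stood alone, and of the 29 box H/ACA genes 2 and 25. The difference among covered genes is therefore not separate from the make-up of the classes.

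**Figure D2:**
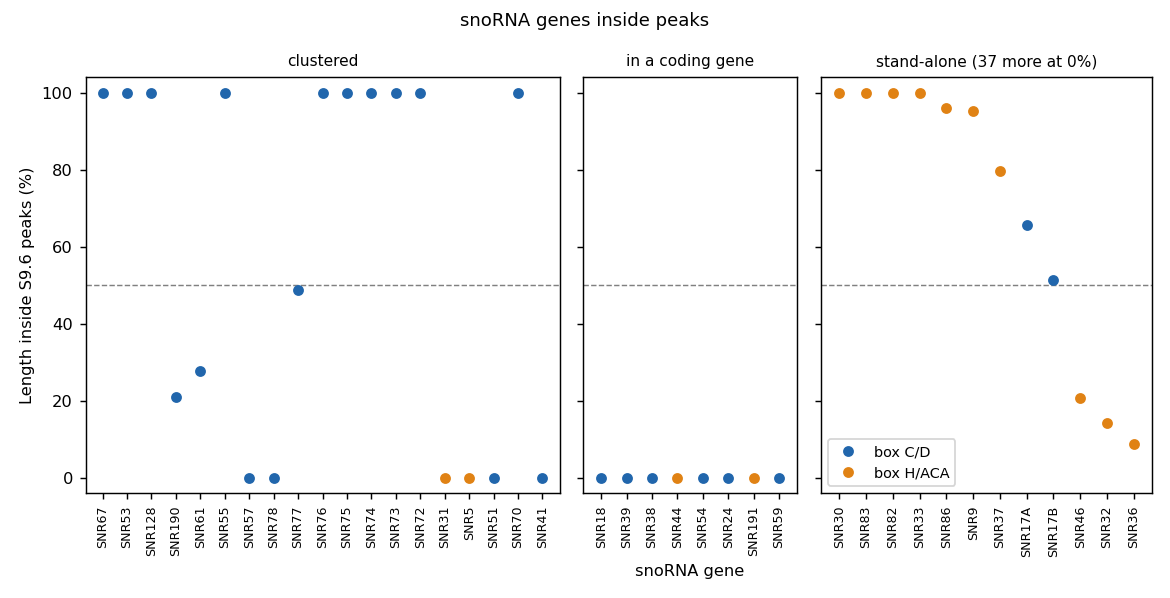
Percent of each snoRNA gene's length inside S9.6 peaks (vertical axis), by position: 19 clustered genes in map order (left), 8 genes inside a protein-coding gene (middle) and the 12 touched stand-alone genes (right; 37 more stood at 0%). Blue points are box C/D and orange points box H/ACA genes, and the dashed line marks 50%: most touched genes sat at or near 100%, and all 8 genes inside a coding gene sat at 0%.

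By position, clustered genes were covered most often and genes within protein-coding genes not at all. A gene counted as clustered with another snoRNA gene within 500 bp, which gave 6 clusters with 19 genes. Of these 19, 10 were covered (52.6%, interval 28.9 to 75.6). Of 49 stand-alone genes 9 were covered (18.4%, interval 8.76 to 32.0), and of the 8 inside a protein-coding gene none was touched (0%, interval 0 to 36.9). The clustered share rests on few independent units: 5 of the 10 covered genes belong to the SNR78 to SNR72 cluster and share 1 peak, and without that cluster 5 of 12 were covered (41.7%, interval 15.2 to 72.3). With each cluster counted once, 12 of 63 loci had at least 50% of their snoRNA bases inside peaks (19.0%, interval 10.2 to 30.9). Among them were 3 of 6 clusters (50%, interval 11.8 to 88.2). The rest were 9 of 49 single genes outside coding genes (18.4%, interval 8.76 to 32.0). These intervals overlap, so the loci do not settle whether clusters were covered more often.

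The longest cluster, on chromosome XIII, carries 7 box C/D genes on the same strand, SNR78, SNR77, SNR76, SNR75, SNR74, SNR73 and SNR72 in the order of transcription (297278 to 298651). A single peak of 1300 bp (297551 to 298850, score 43) covered the last 5 genes whole. SNR77 lay 48.9% inside it, just under the 50% that counts as covered, and SNR78, the first gene, lay 187 bp outside it. The peak thus left out the promoter-side end of the cluster and ran beyond SNR72, its last gene. Its summit (297888) fell between SNR76 and SNR75, 30 bp from SNR75, and the peak touched no gene other than snoRNA genes.

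SNR190 and SNR128 form a pair on chromosome X (139566 to 139950) in which SNR190 comes first. SNR128 encodes U14, a box C/D RNA that acts in 18S rRNA processing. It lay wholly inside a peak (138876 to 139800, score 73), while SNR190 lay 21.1% inside the same peak. The summit (139251) was in DAS1, the convergent neighbour, 315 bp beyond SNR128. DAS1 was itself 73.8% inside peaks.

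SNR67 and SNR53 on chromosome V (61352 to 61789) were both wholly inside a peak of lower score (61201 to 61800, score 20). Its summit (61313) lay 39 bp before SNR67, on the promoter side. This was the only cluster whose snoRNA genes were all covered.

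The clusters of 3 box C/D genes were each covered in the middle gene. On chromosome XII, SNR57, SNR55 and SNR61 are transcribed in that order (794486 to 795024), and a peak (794551 to 794900, score 32) held SNR55 whole and 27.8% of SNR61. SNR57 lay 37 bp outside that peak. On chromosome XVI, SNR41, SNR70 and SNR51 (718700 to 719242) had a peak of 200 bp (718851 to 719050, score 24) that held SNR70 whole, with its summit inside SNR70. That peak touched neither SNR41, 98 bp away, nor SNR51, 45 bp away. No peak of the list was shorter than 200 bp, so this one was as narrow as any.

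The sixth cluster differs in kind. SNR31 and SNR5 on chromosome XV (841958 to 842606) are box H/ACA genes on opposite strands whose starts are 220 bp apart. They had no peak, and the nearest one lay 2908 bp from SNR31.

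**Figure D3:**
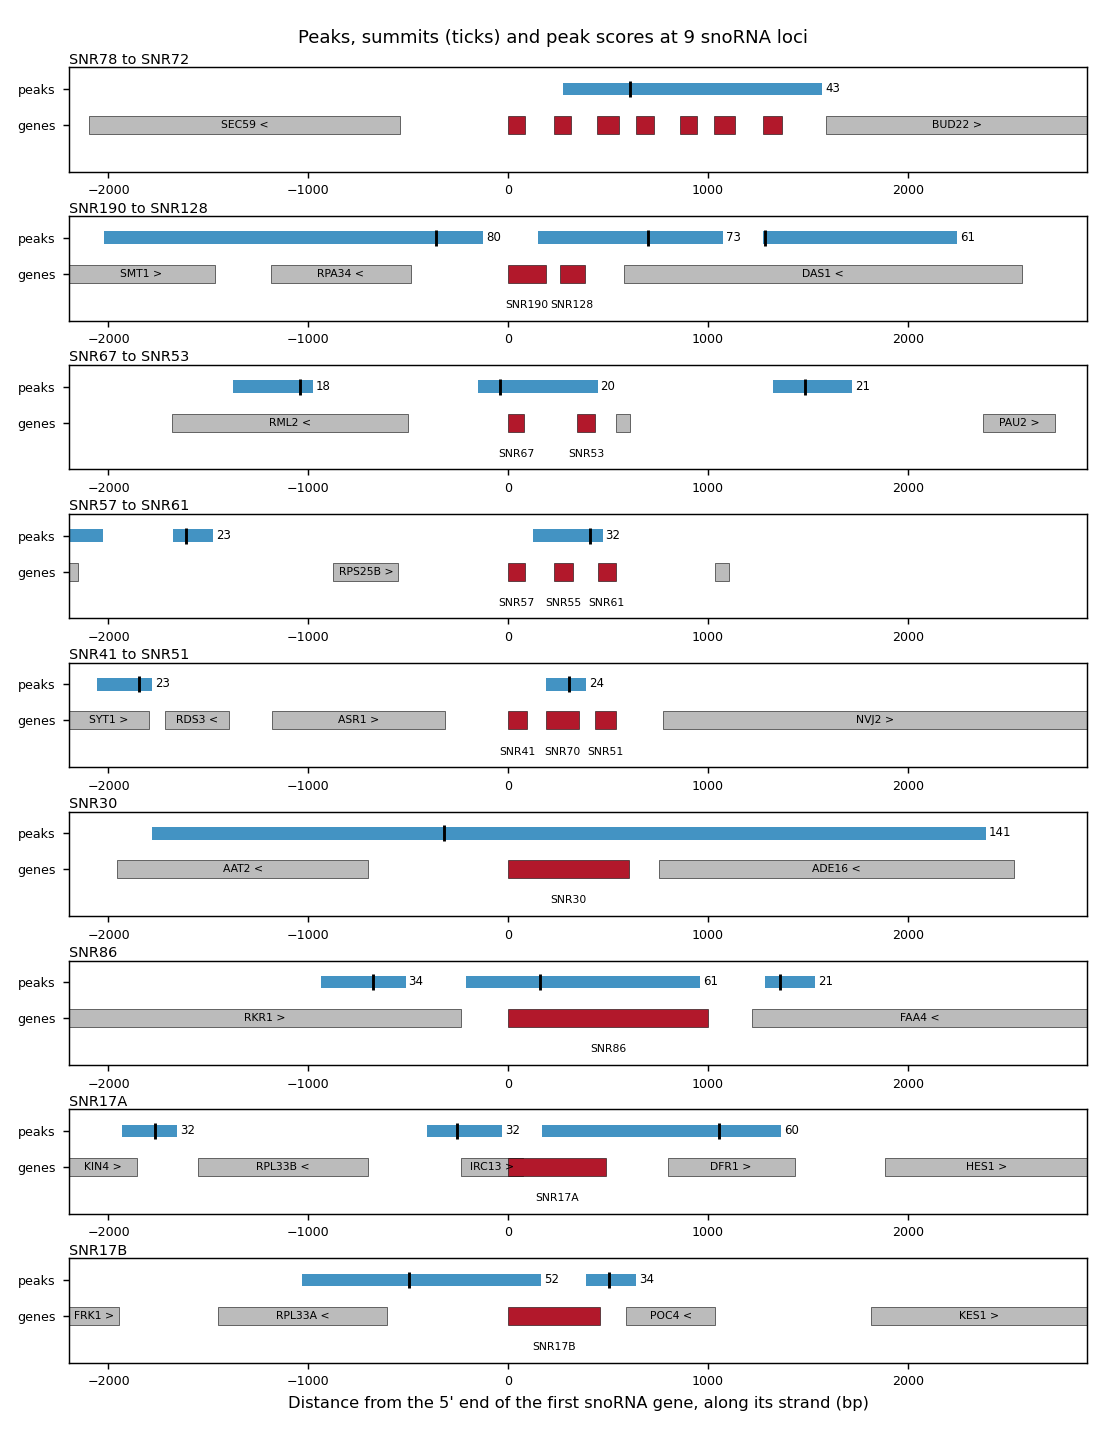
Maps of 9 snoRNA loci, drawn along the strand of the snoRNA genes (horizontal axis, distance in bp from the start of the first snoRNA gene). Red boxes are snoRNA genes, grey boxes other genes (> same strand, < opposite strand), blue bars peaks, black ticks their summits and numbers the authors' scores: the peak over SNR78 to SNR72 (score 43) began inside SNR77, and the peak over SNR30 (score 141) ran across both neighbours.

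Among stand-alone genes the covered ones were mostly long. This split by length was chosen after the values were seen. Of the 8 stand-alone genes of 300 bp or more, 6 were covered (75%, interval 34.9 to 96.8). Of the 41 shorter ones 3 were (7.32%, interval 1.54 to 19.9). The 5.59% of other nuclear genes lies inside the interval of the shorter genes and below that of the longer ones. Both U3 genes, whose values are uncertain, are among the 6. SNR86, the longest snoRNA gene at 1004 bp (chromosome XIII, 762110 to 763113), lay 95.9% inside a peak with a score of 61. SNR30 (chromosome XII, 198784 to 199389), a box H/ACA RNA that acts in 18S rRNA processing and not as a typical guide, lay wholly inside a peak of 4175 bp (197001 to 201175) with a score of 141. That was the highest score of any peak at a snoRNA gene, and rank 31 among the nuclear peaks. SNR37 (chromosome X, 228094 to 228479) was 79.5% inside a peak with a score of 52, and SNR83 (chromosome XIII, 626349 to 626654) was fully inside another, of score 49. The 2 uncovered long genes, SNR84 (550 bp) and SNR42 (351 bp), were far from any peak, with gaps of 3350 bp and 19110 bp.

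U3, the box C/D RNA that base-pairs with the rRNA precursor for its early cuts, has 2 genes. SNR17A (chromosome XV, 780107 to 780596) was 65.5% inside a peak of 1200 bp (780276 to 781475, score 60). SNR17B (chromosome XVI, 281056 to 281517) was 51.3% inside peaks, just over the 50% that counts as covered, and this came from 2 peaks. One (281351 to 282550, score 52) lay over its start and one (280876 to 281125, score 34) over its end, with the middle of the gene free. The peak over its end also held 11.4% of POC4, a gene for a proteasome assembly chaperone. The U3 genes are near-identical copies, and the handling of reads that match both is not stated, so the value of each copy is uncertain.

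The U3 genes were the only stand-alone box C/D genes with a peak. None of the other 22 was touched (0%, interval 0 to 15.4). Of protein-coding genes in the length range of snoRNA genes 14.3% were touched, a share inside that interval. The shares of other nuclear genes (21.7%) and of tRNA genes (33.1%) lay above it. Those 22 had a median length of 100 bp. Among the 19 stand-alone box H/ACA genes under 300 bp, with a median of 190 bp, 6 were touched and 3 covered. Class and length go together in these genes, and their parts in this pattern were not tested.

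The 3 shorter covered box H/ACA genes were SNR82, SNR33 and SNR9, all guides of pseudouridine formation. SNR82 (chromosome VII, 316788 to 317055) was inside a peak along its whole length (score 32), and the summit was in the gene. That peak also held 18.2% of USE1, a gene for a SNARE protein. SNR33 (chromosome III, 142364 to 142546) was likewise fully inside a peak (score 43, 141201 to 142700), but the summit (141563) was in the neighbouring CTO1, which that peak held whole. SNR9 (chromosome XV, 407948 to 408134) was 95.2% inside a peak with a score of 32, and its summit was in GLO4, a mitochondrial glyoxalase gene.

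Another 3 box H/ACA genes were clipped at an edge. SNR46 (chromosome VII, 545370 to 545566) was 20.8% inside a peak with a score of 52 whose summit was in POP6, a gene for a subunit of RNase MRP and RNase P. SNR32 (chromosome VIII, 381540 to 381727) was 14.4% inside a peak with a score of 26 that ended in RPL42B, a ribosomal protein gene. SNR36 (chromosome XV, 680685 to 680866) was 8.79% inside a peak with a score of 15, with the summit 147 bp before its start.

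SNR10 (chromosome VII, 345986 to 346230), a box H/ACA RNA that guides modification and also assists early cleavage of the rRNA precursor, had no peak. The nearest one was 336 bp away, with a score of 17. Its downstream neighbour MMS2 was 65.9% inside peaks. SNR52 (chromosome V, 431129 to 431220) had no peak within 979 bp.

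None of the 8 snoRNA genes inside protein-coding genes was touched, and none of the genes that hold them was covered. They are SNR18 in EFB1, SNR39 in RPL7A, SNR59 in RPL7B, SNR38 in TEF4, SNR44 in RPS22B, SNR54 in IMD4, SNR24 in ASC1 and SNR191 in NOG2. These genes encode translation factors, ribosomal proteins, a ribosome-bound protein, a GTP synthesis enzyme and a ribosome assembly GTPase. Over all protein-coding genes 4.42% were covered and 21.2% touched, so a count of 0 of 8 covered and 2 of 8 touched is near that background and says nothing particular about these genes. ASC1 (26.4% inside a peak with a score of 23) and NOG2 (21.3%, score 34) were the ones touched. In both, the peak lay downstream of the snoRNA, 134 bp beyond SNR24 and 313 bp beyond SNR191. The snoRNAs of RPL7A and RPL7B sit in near-identical paralogs, for which shared reads leave the values uncertain. The table gives no introns, so where each snoRNA lies within its gene was not examined.

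Summits mostly lay beside the snoRNA genes rather than in them. Of the 18 peaks that touched a snoRNA gene, 4 had the summit in one (22.2%, interval 6.41 to 47.6), 5 in another gene and 9 between genes. The summits of SNR37, SNR82, SNR86 and SNR70 were the 4 inside. For comparison, the summit was in a tRNA gene for 13.6% of the 88 peaks at tRNA genes. Of the 1355 peaks that touched a protein-coding gene, 75.4% had it in such a gene, which is on average much longer. Measured by distance, 10 of the 18 summits were nearer to a snoRNA gene than to any other gene.

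The 5 neighbours that held a summit were CTO1, POP6, DAS1, GLO4 and DFR1, the dihydrofolate reductase gene. In each case the neighbour followed the 3′ end of the snoRNA gene. The DFR1 summit (781163) belonged to the SNR17A peak and lay 567 bp beyond the snoRNA. Of the 9 summits between genes, 7 lay before the start of the nearest snoRNA gene, or between 2 genes of a cluster, and 2 lay after its end. The SNR30 summit (198463) lay 321 bp before SNR30 and 378 bp from AAT2, the aspartate aminotransferase gene on the other side. That peak also held 92.1% of ADE16, a purine synthesis gene, and so spanned 3 genes. The SNR83 summit was nearer to the short ORF MIN3 (66 bp) than to SNR83 (386 bp). The peak over the start of SNR17B had its summit nearer to RPL33A (109 bp), a ribosomal protein gene, than to SNR17B (496 bp).

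Only 7 of the 18 peaks touched no gene other than snoRNA genes. They lay over SNR67 and SNR53, SNR37, SNR61 and SNR55, SNR77 to SNR72, SNR86, SNR36 and SNR70. Under these no other gene of the table lay. Of the rest, 10 touched 1 other gene and 1 touched 2.

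The peaks at snoRNA genes were of higher score than most. Their scores ran from 15 to 141 with a median of 43, and 16 of 18 scored at or above the nuclear median of 24, against 49.8% of the 1669 other nuclear peaks, whose median was 23. The 88 peaks at tRNA genes had a median of 49. Widths of peaks at snoRNA genes ran from 200 to 4175 bp with a median of 687.5 bp, against 300 bp for the other nuclear peaks. The 2 below the median score were those at SNR67 and SNR53 (20) and at SNR36 (15). A wide peak has more room to touch a gene of any kind, so these widths are no independent finding. The same limit holds for the scores, which were not compared at like width. The peak with the highest score, at SNR30 (141), was also the widest of the 18 (4175 bp).

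**Figure D4:**
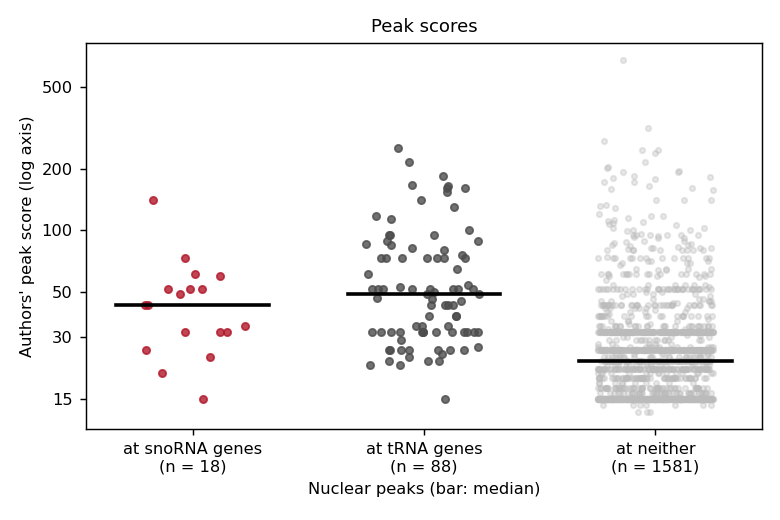
Authors' scores (vertical axis, log scale) of the nuclear peaks that touch a snoRNA gene (red, n = 18), a tRNA gene (dark grey, n = 88) or neither (light grey, n = 1581). Each point is a peak and black bars are medians, at 43, 49 and 23; no peak touched both kinds of gene.

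The sides here are those of the gene's strand, since no strand was read for the peaks. Peak coverage around stand-alone snoRNA genes was higher on the 3′ side within 400 bp and higher on the 5′ side beyond that. In the first 200 bp after the gene a mean of 27.5% of bases lay inside peaks, in the gene itself 17.0%, and in the 200 bp before it 14.4% (n = 49). The next 200 bp held 26.2% after the gene and 14.7% before it. From 400 to 600 bp the means were 14.2% after and 19.0% before, from 600 to 800 bp 9.39% and 14.4%, and from 800 to 1000 bp 7.78% and 15.7%. The order of the sides thus turned with distance. A peak reached the 200 bp after the gene in 17 of 49 stand-alone genes (34.7%, interval 21.7 to 49.6) and the 200 bp before it in 8 (16.3%, interval 7.32 to 29.7). For tRNA genes these shares were 39.3% after and 43.3% before, and for protein-coding genes without long repeated ORFs 10.5% and 9.09%. Within 400 bp a peak was reached after 20 of the 49 stand-alone genes (40.8%, interval 27.0 to 55.8) and before 13 (26.5%, interval 14.9 to 41.1). The intervals of the sides overlap at 200 bp and at 400 bp. Both sides were read on the same 49 genes, so setting these intervals side by side leaves out the pairing.

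Of the 37 untouched stand-alone genes, 7 had a peak in the 200 bp after them and none in the 200 bp before. Within 400 bp the counts were 9 after and 3 before. The 7 were SNR189 (10 bp away), SNR65 (44 bp), SNR49 (92 bp), SNR85 (93 bp), SNR69 (100 bp), SNR47 (127 bp) and SNR4 (143 bp). Among untouched tRNA genes 13.6% had a peak in the 200 bp after and 18.5% in the 200 bp before, and among untouched protein-coding genes 3.32% and 2.24%. SNR65 and SNR189 face each other across RPS14A, a ribosomal protein gene, each with its own peak on the side of that gene. The peak by SNR189 had a score of 54. The difference between the sides near the gene was looked for after the values were seen and has no test here, and the counts are small.

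**Figure D5:**
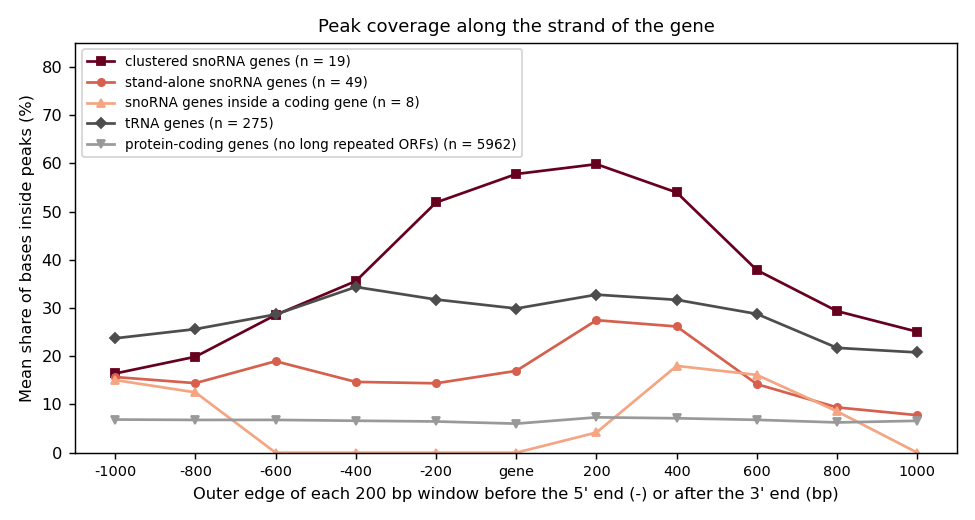
Mean share of bases inside peaks (vertical axis, percent) in 200 bp windows before the 5′ end and after the 3′ end of genes and in the gene itself (horizontal axis), read along the strand. Stand-alone snoRNA genes (n = 49) stood at 14.4% just before and 27.5% just after the gene, clustered ones (n = 19) at 51.9% and 59.8%, and tRNA genes (n = 275) at 31.8% and 32.8%. Beyond 400 bp the stand-alone genes had more coverage before than after the gene; windows of clustered genes hold other genes of the same cluster.

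Stand-alone genes were also divided by the orientation of the next gene, with small counts and no test. Among stand-alone genes with a convergent gene after them, 6 of 25 were covered (24%, interval 9.36 to 45.1), and among those followed by a gene on the same strand 3 of 24 (12.5%, interval 2.66 to 32.4). Each covered share lay within the interval of the other. Touched were 9 of the 25 with a convergent gene and 3 of the 24 with a gene on the same strand. A peak reached the 400 bp after the gene in 12 of these 25 and in 8 of these 24. Orientation and length go together here. Of the 8 stand-alone genes of 300 bp or more, all but SNR17A had a convergent gene after them. Among the shorter covered genes, SNR9 had a convergent gene after it, and SNR33 and SNR82 had one on the same strand. The parts of orientation and length were not tested.

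Protein-coding genes next to snoRNA genes were covered in 14 of 116 cases (12.1%, interval 6.76 to 19.4). For protein-coding genes next to no snoRNA gene, leaving out long repeated ORFs, the share was 3.80%. Of the 14, 8 were touched by a peak that also touched a snoRNA gene: CTO1, POP6, DAS1, AAT2, ADE16, MIN3, DFR1 and RPL33A. The other 6 were RPS26B, MMS2, YHR140W, RPA34, RRP14 and RPL14A, so some of the neighbours lay under peaks of their own. RPA34, a gene for a subunit of RNA polymerase I, was wholly inside peaks and lies 486 bp before SNR190.

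A tRNA gene lay within 1000 bp of 7 snoRNA genes: SNR33, SNR67, SNR53, SNR46, SNR61, SNR55 and SNR57. Of these 4 were covered, and of the other 69 snoRNA genes 15 were. SNR67 and SNR53 share 1 peak, and SNR61, SNR55 and SNR57 form 1 cluster, so the 7 genes are not independent units. The counts are small, and a link with tRNA genes was not tested. None of the peaks at these snoRNA genes touched a tRNA gene. YNCG0023C, the gene 721 bp before SNR46, was wholly inside peaks that did not reach SNR46. SUF16 by SNR33, YNCE0004C by SNR53 and YNCL0040W by SNR61 had no peak.

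Genes for snoRNP proteins and for snoRNA maturation were read beside the snoRNA genes. Of 26 such genes, 4 were covered (15.4%, interval 4.36 to 34.9) and 9 touched (34.6%, interval 17.2 to 55.7). Over all protein-coding genes 4.42% were covered and 21.2% touched. Both of these shares lie inside the intervals, so the counts do not set the list apart. The 4 covered were NOP58, a core component of C/D particles (78.2% inside peaks, score 61), BCD1, an assembly factor of the same particles (74.8%, score 32), CBF5, the pseudouridine synthase of box H/ACA particles (65.4%, score 28), and NOP10, another H/ACA core protein (63.3%, score 21). Covered members thus came from both kinds of particle. NOP1, NOP56 and SNU13, the other core proteins of box C/D particles, and NHP2 and GAR1 of box H/ACA particles had no peak. RNT1, which cuts clustered precursors, was 22.2% inside peaks (highest score 26), and RAT1, a trimming exonuclease, 6.62% (score 38). SHQ1, an assembly factor of H/ACA particles, was 13.1% inside a peak with a score of 23. NRD1, NAB3 and SEN1 had no peak. TBF1 and REB1, which encode transcription factors known at snoRNA promoters among others, were 7.16% (score 32) and 13.4% (score 21) inside peaks.

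How a peak is reduced to a position changes the contrast with other nuclear genes. When only the 200 bp around each summit counted and any overlap sufficed, 11 of 76 snoRNA genes were touched (14.5%). The share of the other nuclear genes was 17.9%, which turns the order. Box C/D genes (14.9%), box H/ACA genes (13.8%), stand-alone genes (10.2%) and loci (14.3%) also fell below that share. Clustered genes stayed above it (31.6%). The other nuclear genes had a median length of 1146 bp. Protein-coding genes in the length range of snoRNA genes stood at 10.7% and tRNA genes at 13.8%. In bases, 7.15% of the snoRNA sequence lay in those windows, against 2.49% for other nuclear genes.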

How the data were processed

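DRIP-seq of 1 S9.6 immunoprecipitate was analysed as 1 deposited peak list, and the labels place 1 input beside it. MACS2 2.1.1.20160309, SAMtools 1.7 and the build sacCer3 are named per the submitters' processing notes. Aligner, peak threshold, use of the input and handling of multiply matching reads are not given in the sources used. The peak score is the authors' deposited value on an unstated scale. Depth is unknown.

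Overlaps were computed in Python 3.11.15 with SciPy 1.17.1, and tested on simulated peaks. Strands came from systematic gene names. Long repeated ORFs are 40 unnamed ORFs over 5000 bp that share their length with another. The snoRNP list was written by hand. Named are all touched snoRNA genes, all clusters, all snoRNA genes inside coding genes, SNR10, SNR17A, SNR17B, SNR30, SNR128 and SNR190, genes under the peaks at snoRNA genes, and touched members of the snoRNP list; other names were chosen after their values were seen. Members and lists were chosen with earlier results of these data known. Promoter motifs and snoRNA sequences were not analysed here. Alternatives changed the overlap, the peaks used, the cluster distance and the rule for summits.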

Additional observations from a re-analysis of the deposited data

How the results depend on the processing

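Of 55 recomputed values, 47 stayed within the interval of the reported value and 8 did not. Some of the 47 could not have moved. No peak at a snoRNA gene touched a tRNA gene or long repeated ORF, so leaving out such peaks changed no snoRNA value. The share inside coding genes was 0% with any overlap, so a stricter overlap or fewer peaks could not change it. Small groups also had wide intervals, so the count of 47 is a weak check. The share of snoRNA genes covered was 32.9% with any overlap, 21.1% with at least 90% of the length, and 22.4% with peaks at or above the median score of 24. It was 14.5% with 200 bp around each summit and any overlap, the only snoRNA value outside its interval. The share of other nuclear genes covered, 5.59%, was 21.7% with any overlap, 2.61% with at least 90% of the length, 4.80% with peaks at or above the median score, 2.85% without peaks at tRNA genes or long repeated ORFs, and 17.9% around the summits. An added setting, chosen after seeing the data, gave 13.8% of tRNA genes and 10.7% of coding genes in the length range of snoRNA genes around the summits. Another added setting left out the SNR78 to SNR72 cluster, which gave 20.3% for all snoRNA genes and 17.5% for box C/D genes. With a cluster distance of 250 bp, 8 of 17 clustered genes were covered, and with 1000 bp the classes gave the same counts. With the summit within 100 bp of a snoRNA gene counted, 8 of 18 peaks qualified. No paired analysis was possible because both groups hold 1 sample each, and the values come from 1 peak list. The planned motif search in promoters was not run.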
